A study of Mus musculus with 6 samples.

Results

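The genes described here encode the cytokines of the IL-12 family and IL-15, with the private receptor chain of IL-15. They are Il12a, Il12b, Il23a, Il27, Ebi3, Il15 and Il15ra, 7 genes of the 54532 gene IDs in the deposited table. Each was found by its symbol, and each had 1 ID. RNA had been sequenced from CD11c-sorted cells of mouse melanomas, with 3 libraries for Gli2CA tumours and 3 for tumours of the non-targeted control (NTC). Both lines were BRAFV600EPTEN-/- melanoma cells grown with puromycin, implanted in matrigel into C57Bl/6 mice and harvested on day 28. Gli2CA cells carry an active form of Gli2, a transcription factor of the Hedgehog pathway, so the engineered difference lay in the implanted tumour cells and was not made in the sorted cells. The labels do not say whether libraries came from separate mice, and give no age of the mice, and p-values therefore describe how these libraries spread, which may be technical. The labels call the sorted cells dendritic cells, but CD11c is also carried by macrophages, some monocytes and activated lymphocytes.

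IL-12 family cytokines are pairs of unlike chains. Il12b encodes a shared chain that makes IL-12 with the product of Il12a and IL-23 with the product of Il23a. Ebi3, a soluble receptor-like chain, makes IL-27 with the product of Il27. Dendritic cells release IL-12 to drive interferon gamma in T cells and NK cells, and IL-27 restrains or shapes T cell responses. IL-15 is shown to neighbouring T and NK cells while bound to the IL-15 receptor alpha chain on the dendritic cell or macrophage that made it, and it keeps memory CD8 T cells and NK cells alive.

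The 250 bases before the annotated start are given for Il12b, which was read in every library, for its partner Il12a, which was listed at 0 in every library, and for Ebi3, whose log2 difference had the largest standard error of the 5 genes tested. The sequences are those of RefSeq on GRCm38.p6, plus strand, 5′ to 3′. Capitals mark the letters of 6 motifs searched on both strands, none overlapping here.
Il12b, chr11:44399813-44400062: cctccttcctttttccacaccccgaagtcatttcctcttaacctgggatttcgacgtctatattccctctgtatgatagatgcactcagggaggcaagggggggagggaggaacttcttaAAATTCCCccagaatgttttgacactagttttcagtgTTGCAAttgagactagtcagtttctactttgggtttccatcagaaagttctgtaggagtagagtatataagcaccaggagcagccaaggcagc
Il12a, first start, chr3:68690394-68690643: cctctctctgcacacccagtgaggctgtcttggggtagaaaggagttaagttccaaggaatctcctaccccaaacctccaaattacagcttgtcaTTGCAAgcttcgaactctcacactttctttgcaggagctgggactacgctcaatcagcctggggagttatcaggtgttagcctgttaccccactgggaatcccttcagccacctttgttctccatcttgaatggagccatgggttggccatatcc
Ebi3, chr17:55952373-55952622: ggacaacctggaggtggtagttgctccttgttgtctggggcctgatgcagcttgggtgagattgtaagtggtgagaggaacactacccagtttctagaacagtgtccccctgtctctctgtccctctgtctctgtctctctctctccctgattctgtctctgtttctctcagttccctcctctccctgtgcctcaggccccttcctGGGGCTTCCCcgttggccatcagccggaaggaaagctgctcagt
The Il12b window held the NF-kB half-site letters GGGAATTT, on the minus strand 130 to 123 bases before the start, and the C/EBP core letters TTGCAA, 93 to 88 bases before it. Of 32851 windows of the same length in the RefSeq table, 0.843% held the first and 5.34% the second. The Il12a window held TTGCAA 155 to 150 bases before its start. The Ebi3 window held 1 match to the full NF-kB consensus 44 to 35 bases before its start, as did 7.25% of windows. The consensus of the interferon-stimulated response element (2.98% of windows) and that of the ETS-IRF composite element (2.30%) were not matched in these 3 windows, and neither was the AP-1 motif TGANTCA (6.75%). A match is a run of letters and says nothing of a bound factor. The table held windows for 4 of the 7 genes.

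Libraries differed in the number of genes read. Fragments per library, recovered from the values, came to 18780000 to 29130000. NTC 1 and NTC 3 had 7827 and 8534 genes at 1 FPKM (fragments scaled by transcript length and by library total) or more, against 11257 to 11998 in the other 4 libraries. Of the genes that averaged at least 10 FPKM in the other 5 libraries, 18.7% were under 1 FPKM in NTC 1 and 12.5% in NTC 3, against 1.10% to 1.59% in each other library. Of 20 genes that most cells use, Tfrc was listed at 0 in 3 libraries, so a 0 here is reported as a listed value. NTC 2 stood apart in collagen, with Col1a1 at 732 FPKM against at most 28.7 in the others. Itgax, which encodes CD11c, was read in every library, at 118 to 224 FPKM in Gli2CA and 62.4 to 117 in NTC.

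None of the 5 genes that could be tested differed between the groups by the test, and Il12a and Il23a did not enter it. The test was limma on log2(FPKM + 1) over 12266 genes, those averaging 1 FPKM or more across libraries, with Benjamini-Hochberg adjustment and a threshold of 0.05. Of the 7 genes, 5 reached that mean, and 0 of these 5 passed, as did 0 of all 12266 (0%). At an unadjusted p under 0.05 the count was 0 of 5, against 10.6% of all genes (7.82% higher and 2.81% lower in Gli2CA), and quantile normalization, the 1 alternative of 19 in which any gene passed, also called 0 of the 5. The groups of libraries overlapped in all 5, while they did not overlap in 16.6% of all genes. The mean of log2(FPKM + 1) was higher in Gli2CA for Il27, Ebi3 and Il15 and lower for Il12b and Il15ra, 3 of 5 higher against 59.7% of all genes. Counts of higher and lower means in every list below are on that scale too, and for Ebi3 the mean FPKM went the other way. The median log2 difference, Gli2CA minus NTC, was 0.24 over the 5 genes and 0.25 over all genes tested.

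**Figure D1:**
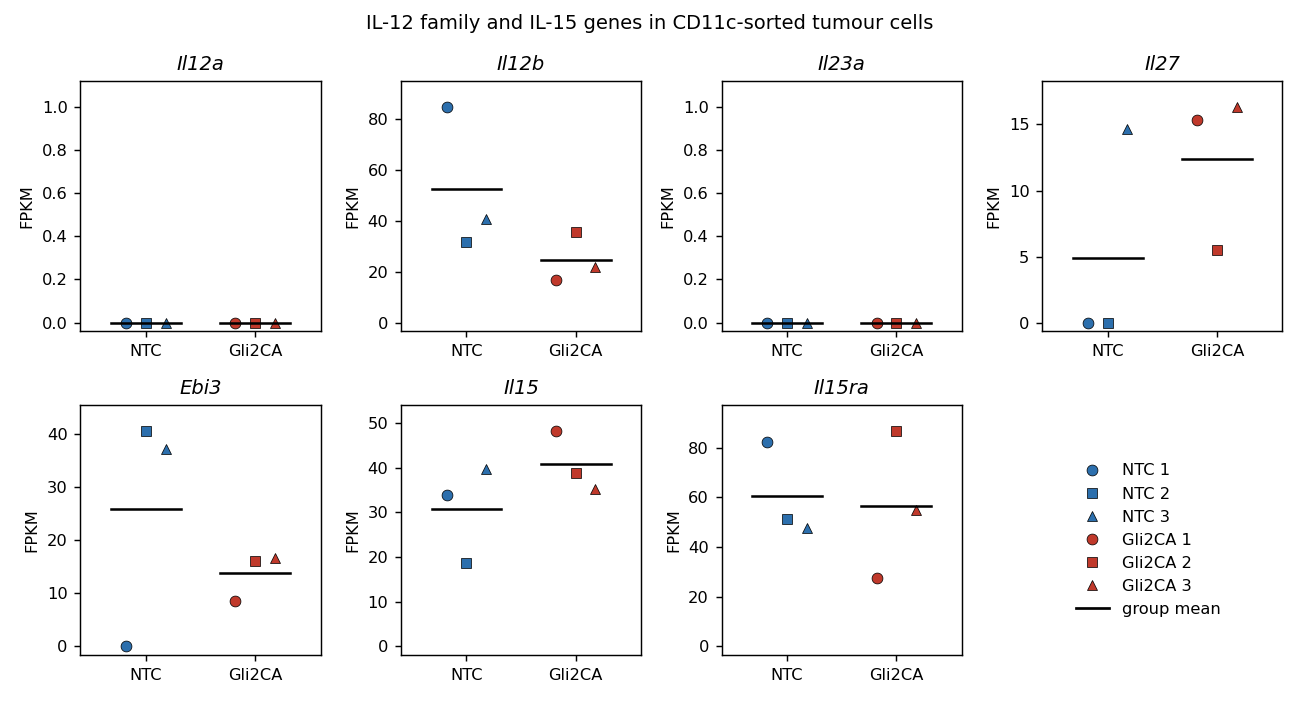
Expression in FPKM (vertical axes, linear, 1 scale per gene) of the 7 genes in the 3 NTC libraries (blue) and the 3 Gli2CA libraries (red), with group means as black bars and a marker shape for each replicate number. Il12a and Il23a lie at 0 in every library, and Ebi3 and Il27 are near or at 0 in NTC 1 but at 8.51 FPKM or more for Ebi3 in every Gli2CA library.

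Il12b encodes the chain shared by IL-12 and IL-23 and lies on chromosome 11, 44400063 to 44414033, plus strand, in GENCODE M21 on GRCm38. Its level was 84.7, 31.7 and 40.7 FPKM in NTC 1, NTC 2 and NTC 3 and 16.8, 35.6 and 21.8 FPKM in Gli2CA 1, Gli2CA 2 and Gli2CA 3. NTC 1 was the highest, and the groups overlapped only because Gli2CA 2 lay above NTC 2. The means were 52.4 ± 28.3 FPKM in NTC and 24.7 ± 9.71 FPKM in Gli2CA (SD, n = 3 per group). The log2 difference was -0.99 ± 0.54 (SE; 95% interval -2.22 to 0.24; limma adjusted p = 0.529, unadjusted 0.101). It was lower in Gli2CA in all 19 alternatives, at -0.59 without NTC 1 and -0.41 without both NTC 1 and NTC 3. Between 930 and 3025 fragments per library lay behind these levels, and how much of the spread between libraries was technical was not tested.

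Its partner chains were listed at 0. Il12a, on chromosome 3, 68690644 to 68698547, and Il23a, on chromosome 10, 128296139 to 128298752, were listed at 0 FPKM in all 6 libraries. At their lengths 1 fragment would have been worth 0.0313 to 0.0485 FPKM for Il12a and 0.0223 to 0.0345 FPKM for Il23a. Whether these zeros are an absence of reads or a loss in the authors' counting was not tested, and neither partner entered the test. No other annotated gene overlaps Il12a, Il12b or Il23a.

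Il27 encodes the cytokine-like chain of IL-27, on chromosome 7, 126589010 to 126594941, minus strand. It was listed at 0 FPKM in NTC 1 and NTC 2 and at 14.6 FPKM in NTC 3, against 15.3, 5.46 and 16.3 FPKM in the Gli2CA libraries. All Gli2CA libraries and a single NTC library were above 0, and NTC 3 lay above Gli2CA 2. The log2 difference was 2.29 ± 1.22 (SE; 95% interval -0.52 to 5.10; limma adjusted p = 0.525). Its size depended on how the zeros entered, with 4.41 at a pseudocount of 0.1 and 5.89 with voom on recovered fragments. Its 3′ end overlaps the 3′ end of Apobr, which lies on the other strand and had 69.6, 50.7 and 12.98 FPKM in NTC 1, NTC 2 and NTC 3 and 53.0, 19.2 and 45.9 FPKM in the Gli2CA libraries. Apobr was high in NTC 1 and NTC 2, where Il27 was at 0, and lowest in NTC 3, where Il27 was at 14.6 FPKM. It was also high in Gli2CA 1 and Gli2CA 3, where Il27 was above 15 FPKM. The part of Apobr reads in the Il27 values was not tested. Whether the counting used strand is not given in the sources used here.

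Ebi3, the other chain of IL-27, lies on chromosome 17, 55952640 to 55957022. Its level was 0.0923, 40.7 and 37.2 FPKM in NTC 1, NTC 2 and NTC 3 and 8.51, 16.1 and 16.7 FPKM in the Gli2CA libraries. The Gli2CA libraries lay below NTC 2 and NTC 3 and above NTC 1, where 2 fragments were counted against 1310 in NTC 2. The mean FPKM was 26.0 ± 22.5 in NTC and 13.8 ± 4.58 in Gli2CA (SD, n = 3 per group), lower in Gli2CA, while the mean of log2(FPKM + 1) was higher there. The log2 difference was 0.24 ± 1.36 (SE; 95% interval -2.87 to 3.36; limma adjusted p = 0.958), so the data allow a large change in either direction. Without NTC 1 it was -1.49, and without NTC 1 and NTC 3 together -1.55. NTC 1 was the library in which 18.7% of otherwise expressed genes were under 1 FPKM, and the part of this in the Ebi3 value was not tested. The antisense gene Gm16712 overlaps Ebi3 and was at 3.29 FPKM in Gli2CA 1 and at most 0.0543 in the other 5 libraries.

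The 2 chains of IL-27 were not both present in every library's values. Every library with Il27 above 0 also had Ebi3 at 8.51 FPKM or more, while NTC 1 was listed at 0 for Il27 and had 2 fragments of Ebi3. NTC 2 had the highest Ebi3 level of the 6 and Il27 at 0. In the Gli2CA libraries both chains were present, Ebi3 at 8.51 to 16.7 FPKM and Il27 at 5.46 to 16.3 FPKM. The NTC library with both was NTC 3.

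Il15 lies on chromosome 8, 82331632 to 82403222, minus strand. Its level was 33.9, 18.6 and 39.7 FPKM in NTC 1, NTC 2 and NTC 3 and 48.3, 38.9 and 35.2 FPKM in the Gli2CA libraries. The lowest value was that of NTC 2, and NTC 3 lay among the Gli2CA libraries. The means were 30.7 ± 10.9 FPKM in NTC and 40.8 ± 6.73 FPKM in Gli2CA (SD, n = 3 per group), and the log2 difference came to 0.45 ± 0.46 (SE; 95% interval -0.61 to 1.52; limma adjusted p = 0.724). It was 0.14 without NTC 2 and 1.08 without NTC 1 and NTC 3.

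Il15ra, which holds IL-15 on the cell surface, lies on chromosome 2, 11705290 to 11734317, plus strand. Its level was 82.3, 51.2 and 47.5 FPKM in NTC 1, NTC 2 and NTC 3 and 27.6, 86.9 and 55.0 FPKM in the Gli2CA libraries. Gli2CA 1 was the lowest and Gli2CA 2 the highest of all 6, so the spread within Gli2CA spanned the whole NTC group. The means were 60.4 ± 19.1 FPKM in NTC and 56.5 ± 29.7 FPKM in Gli2CA (SD, n = 3 per group), and the log2 difference came to -0.20 ± 0.50 (SE; 95% interval -1.34 to 0.95; limma adjusted p = 0.897). The sign changed to 0.24 without Gli2CA 1 and to 0.05 without NTC 1.

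FPKM are per length, so the levels of different genes can be set side by side. In the Gli2CA group the order of mean FPKM was Il15ra, Il15, Il12b, Ebi3 and Il27, and in the NTC group Il15ra, Il12b, Il15, Ebi3 and Il27. In Gli2CA each neighbouring pair in that order overlapped in its range over libraries except Il12b and Ebi3, which were parted by 16.8 against 16.7 FPKM. In NTC every neighbouring pair overlapped. The place of Il12b against Il15 differed between the groups within each library: Il12b was below Il15 in all 3 Gli2CA libraries and above it in all 3 NTC libraries. The difference of their log2(FPKM + 1) values, Il12b minus Il15, was -1.47, -0.13 and -0.67 in Gli2CA against 1.30, 0.74 and 0.04 in NTC. NTC 3 and Gli2CA 2 lay closest to equality. The group means of this difference stood -1.44 apart, Gli2CA minus NTC, with an exact two-sided permutation p = 0.1, the smallest that 3 libraries against 3 can give, and 0.5 adjusted over the 10 pairs of tested genes. Il12b minus Il15ra was -0.68, -1.26 and -1.29 in Gli2CA against 0.04, -0.67 and -0.22 in NTC. The groups were parted there only by Gli2CA 1 at -0.684 and NTC 2 at -0.674, with means of -1.08 ± 0.34 in Gli2CA and -0.28 ± 0.36 in NTC (SD, n = 3 per group; exact permutation p = 0.1, adjusted 0.5), and the other 8 pairs overlapped. These pairs were compared after their values were seen.

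**Figure D2:**
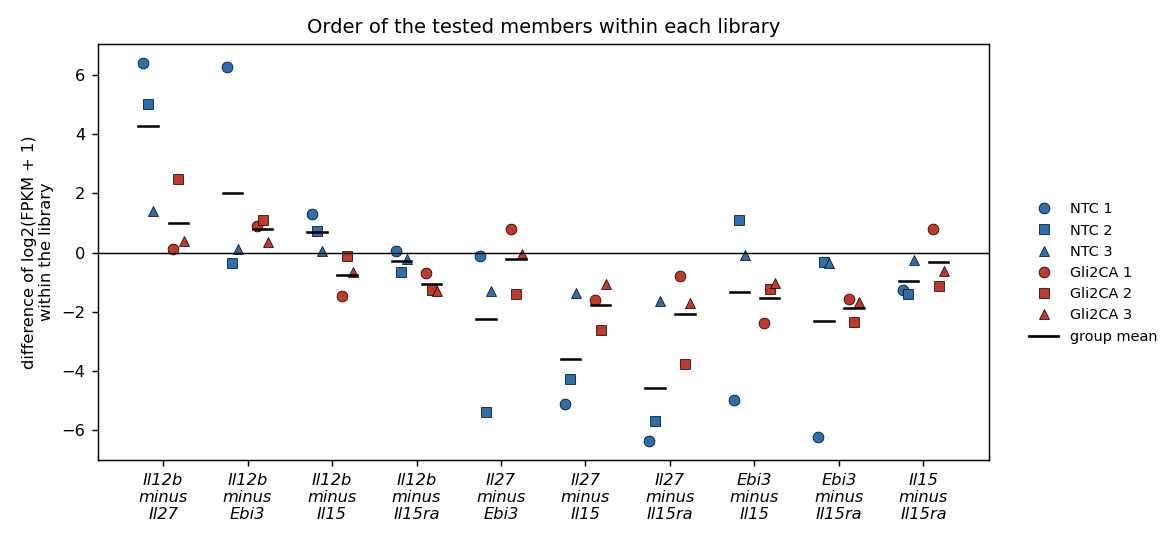
Difference of log2(FPKM + 1) between 2 genes of the same library (vertical axis) for the 10 pairs of tested genes, NTC in blue and Gli2CA in red, with group means as black bars. Il12b minus Il15 is above 0 in the 3 NTC libraries and below 0 in the 3 Gli2CA libraries.

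Markers of cells that make these cytokines were set beside the cytokine genes, and 0 of the tested markers passed. In bulk RNA, fewer cells of a type and less RNA per cell cannot be told apart. Type 1 conventional dendritic cells, a main source of IL-12 in tumours, were scored by 10 markers, all tested. All 10 had the lower mean in Gli2CA, against 40.3% of all genes. Of these 10, 7 lay wholly lower there, against 5.79% of all genes, and 0 passed the test. Summed over the list, the level was 746 to 849 FPKM in Gli2CA and 1082 to 1717 FPKM in NTC. Xcr1, the chemokine receptor of this subset, had 5.45, 7.02 and 11.5 FPKM in Gli2CA and 33.2, 51.4 and 33.3 FPKM in NTC. Of the mature dendritic cell markers, 10 of 10 tested had the lower mean in Gli2CA, against 40.3% of all genes, and 3 lay wholly lower, against 5.79%. Their summed level overlapped, at 565 to 1045 FPKM in Gli2CA against 945 to 1801 in NTC. Ccr7, which guides mature dendritic cells to lymph nodes, had 52.8 to 89.6 FPKM in Gli2CA and 103 to 257 FPKM in NTC. Il4i1 of this list was at 0 in all 6 libraries. Monocyte markers had the higher mean in Gli2CA in 8 of 8, against 59.7% of all genes, and 3 lay wholly higher, against 10.9%. They summed to 3326 to 4736 FPKM in Gli2CA against 1643 to 2087 in NTC.

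The cytokine genes were also set against these markers in the same library, which carries the markers' own differences into each value. Il12b minus the mean of the type 1 conventional dendritic cell markers, both as log2(FPKM + 1), was -0.54, 0.35 and -0.30 in Gli2CA against 0.37, -1.31 and -0.52 in NTC, with overlap. Against the mature markers it was -0.58, -0.57 and -0.81 in Gli2CA against 0.30, -0.68 and -1.25 in NTC, again with overlap. Il12b overlapped between the groups without any subtraction too. Against monocyte markers it was lower in every Gli2CA library, with a difference of group means of -2.24. Il15 itself overlapped between the groups, and the mean level of the type 1 conventional dendritic cell markers did not, at 4.70 to 4.84 in Gli2CA and 5.90 to 6.34 in NTC. Relative to type 1 conventional dendritic cell markers Il15 was 0.93, 0.48 and 0.37 in Gli2CA against -0.92, -2.05 and -0.56 in NTC, without overlap. Relative to mature markers Il15 also did not overlap, with means of 0.10 ± 0.70 in Gli2CA and -1.23 ± 0.22 in NTC (SD, n = 3 per group). Relative to monocyte markers Il15 overlapped between the groups, and Il15ra was lower in every Gli2CA library. Il12b and Il15ra themselves overlapped, and the mean level of the monocyte markers did not, at 6.95 to 7.56 in Gli2CA and 5.64 to 6.32 in NTC. These differences are descriptions with no test, and the part of cell make-up in any of them was not tested.

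**Figure D3:**
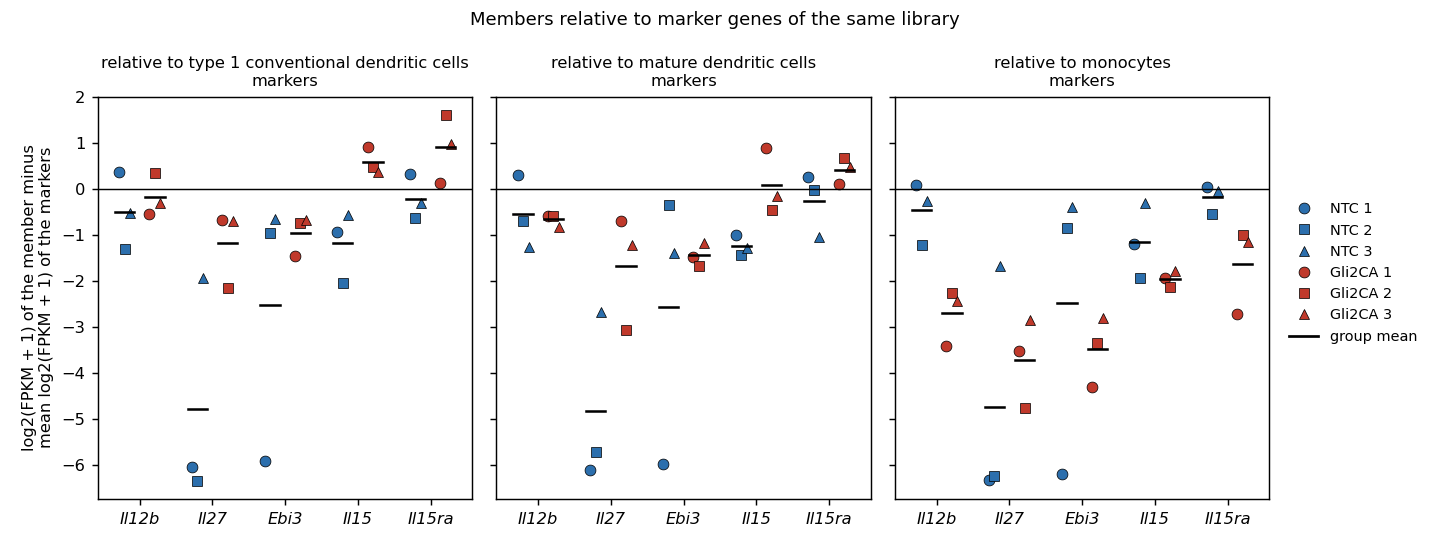
Level of each tested gene minus the mean level of 3 marker lists in the same library, on the log2(FPKM + 1) scale (vertical axis), NTC in blue and Gli2CA in red, with group means as black bars. Il15 lies higher in every Gli2CA library against both dendritic cell lists, and Il12b overlaps against both.

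The receptors of these cytokines did not differ between the groups by the test, with 0 of 6 tested genes passing. Il2rb, the signalling chain for IL-15 on T and NK cells, had 67.8, 50.2 and 53.9 FPKM in Gli2CA and 78.3, 137 and 139 FPKM in NTC. It lay wholly lower in Gli2CA, the log2 difference being -0.99 ± 0.36 (SE; limma adjusted p = 0.379). Its partner, the common gamma chain gene Il2rg, had 338 to 365 FPKM in Gli2CA and 274 to 374 FPKM in NTC. Il12rb1, the receptor chain shared by IL-12 and IL-23, had 0.0292 FPKM in NTC 3 and 6.69 to 32.4 FPKM elsewhere. Il12rb2, which completes the IL-12 receptor, was at 0 in NTC 1 and at 0.420 to 10.6 FPKM in the others, and Il23r, which completes that of IL-23, was at most 0.0642 FPKM. Il27ra, the private IL-27 receptor chain, had 0.0522 FPKM in NTC 1, 61.8 and 43.0 FPKM in NTC 2 and NTC 3, and 4.88 to 22.0 FPKM in Gli2CA. Like Ebi3, it was lowest in NTC 1 and highest in NTC 2. Il6st, the signalling chain of the IL-27 receptor, had 2.21 to 28.5 FPKM in NTC and 7.18 to 40.3 FPKM in Gli2CA.

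JAK kinases and STAT factors carry these signals into the nucleus, and 0 of 9 passed, with 5 higher and 4 lower in mean log2(FPKM + 1) and all overlapping. Stat4, the factor of IL-12 signalling, had 20.6 to 27.9 FPKM in Gli2CA and 8.26 to 22.7 FPKM in NTC. Stat5a and Stat5b, the factors of IL-15 signalling, differed in sign, with log2 differences of 1.37 ± 1.30 and -1.26 ± 0.63 (SE; limma adjusted p = 0.706 and 0.506). Stat5a was at 0.132 FPKM in NTC 1. Jak3, the kinase bound to the common gamma chain, was at 2.05 FPKM in NTC 1 and at 24.6 to 49.0 FPKM elsewhere.

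Of 12 transcription factors known to act on these genes, 6 lay wholly lower in Gli2CA, against 5.79% of all genes. Irf7 lay wholly higher, as did 10.9% of all genes, and 0 of the 12 passed the test. The 6 were Batf3, Irf1, Irf5, Irf8, Nfkb1 and Spi1. Irf8, which type 1 conventional dendritic cells need and which binds the Il12b promoter, had 559, 497 and 657 FPKM in Gli2CA and 1371, 947 and 692 FPKM in NTC. Its log2 difference was -0.77 ± 0.26 (SE; limma adjusted p = 0.350). Batf3, which the same subset needs, had 55.9, 97.0 and 49.95 FPKM in Gli2CA and 454, 106 and 190 FPKM in NTC, -1.68 ± 0.53 (SE; limma adjusted p = 0.313). NTC 1 was the highest library for Batf3 and Irf8, as for Il12b, and also for Irf3 (199 FPKM) and Irf5 (833 FPKM) of this list. It was the library with the fewest genes at 1 FPKM or more, and the part of this in these values was not tested. Irf7, the amplifier of type I interferon, had 943 to 1470 FPKM in Gli2CA and 366 to 502 FPKM in NTC, 1.30 ± 0.23 (SE; limma adjusted p = 0.182). Irf7 passed after quantile normalization (limma adjusted p = 0.0405), with a log2 difference of 1.29. Nfil3, a repressor of Il12b, had 14.9 to 63.3 FPKM in Gli2CA and 0.0426 to 15.3 FPKM in NTC, with overlap. Rel and Rela, the NF-kB subunits that drive Il12b, overlapped, Rel at 3.21 to 8.71 FPKM over the 6 libraries.

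**Figure D4:**
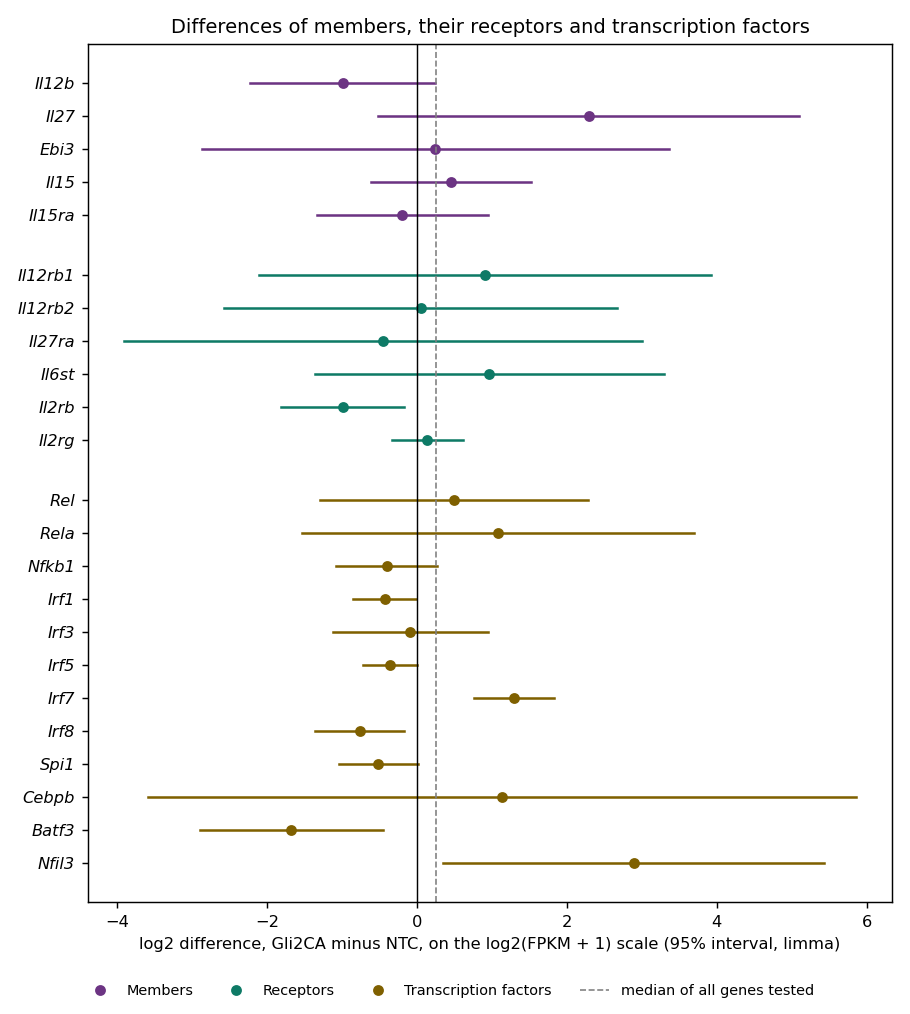
Difference of the mean log2(FPKM + 1) between groups, positive where Gli2CA was higher (horizontal axis), with 95% intervals from limma for the 5 tested cytokine genes, their 6 tested receptors and 12 transcription factors; the dashed line is the median of all genes tested. Every interval of the cytokine genes holds 0, while those of Il2rb, Irf1, Irf5, Irf7, Irf8, Batf3 and Nfil3 do not, before adjustment.

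Inducers and inhibitors of IL-12 output passed in 0 of 11 and 0 of 8 tested genes. Cd40, through which T cells license dendritic cells to make IL-12, had 206, 245 and 317 FPKM in Gli2CA and 154, 129 and 99.6 FPKM in NTC. It lay wholly higher in Gli2CA, 1.00 ± 0.29 (SE; limma adjusted p = 0.264), while Il12b had the lower mean there. Tlr7, a sensor of RNA, had 3.68 to 5.92 FPKM in Gli2CA and 0.0213 to 0.248 FPKM in NTC, also without overlap. Among the 11 inducers 2 lay wholly higher and 0 wholly lower, against 10.9% and 5.79% of all genes. Il10, a cytokine that restrains IL-12, had 3.09, 2.96 and 0.0599 FPKM in Gli2CA and 0, 15.4 and 0.494 FPKM in NTC, with no order by group. Il10ra, its receptor, had 142 to 160 FPKM in Gli2CA and 77.7 to 101 FPKM in NTC, 0.68 ± 0.27 (SE; limma adjusted p = 0.438). Socs3, an inhibitor of cytokine signalling, had 264 to 405 FPKM in Gli2CA and 27.2 to 253 FPKM in NTC. Socs1, another such inhibitor, had 1.98 to 27.2 FPKM in Gli2CA and 15.1 to 26.6 FPKM in NTC, with overlap and the lower mean in Gli2CA. Among the 8 inhibitors 2, Il10ra and Socs3, lay wholly higher and 0 wholly lower, against 10.9% and 5.79% of all genes. Ptger2 and Ptger4, receptors for prostaglandin E2, overlapped between the groups.

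Response genes of T and NK cells downstream of IL-12 and IL-15 were read in these sorted cells and went both ways, 5 higher and 5 lower in mean log2(FPKM + 1), with 0 of 10 passing. Prf1, which encodes perforin, was among the higher on that scale at 0.95, but its mean FPKM was lower, at 41.2 in Gli2CA and 60.8 in NTC. Ifng, the hallmark target of IL-12, had 79.5, 51.7 and 70.7 FPKM in Gli2CA and 78.6, 164 and 49.4 FPKM in NTC; the log2 difference came to -0.37 ± 0.47 (SE; limma adjusted p = 0.782). Gzma, a granzyme of NK and T cells, had 85.5, 55.4 and 47.7 FPKM in Gli2CA and 1.31, 7.12 and 21.1 FPKM in NTC, 3.06 ± 0.83 (SE; limma adjusted p = 0.239). Xcl1, the ligand of Xcr1, had 37.8, 39.1 and 94.96 FPKM in Gli2CA and 102, 179 and 107 FPKM in NTC, -1.25 ± 0.45 (SE; limma adjusted p = 0.382). These genes are not made by dendritic cells as a rule, and T cell transcripts were present, with 8 of 8 T cell markers tested and summed levels of 731 to 1036 FPKM in Gli2CA and 1078 to 2136 FPKM in NTC. The mean log2(FPKM + 1) of the T cell markers overlapped, at 5.97 to 6.56 in Gli2CA and 6.09 to 7.42 in NTC. Of these 8 markers 2, Trac and Cd8a, lay wholly lower in Gli2CA, against 5.79% of all genes. Cd4 had the higher mean there. NK cell markers summed to 1198 to 1471 FPKM in Gli2CA and 1188 to 2213 FPKM in NTC, with Nkg7 at 764 FPKM or more in every library. Of the 8 NK cell markers 6 had the higher mean in Gli2CA and 2 the lower, against 59.7% and 40.3% of all genes. Gzma and Klre1 lay wholly higher, 2 of 8 against 10.9% of all genes, and 0 passed. The mean log2(FPKM + 1) of the NK cell markers overlapped, at 4.89 to 5.32 in Gli2CA and 3.73 to 5.01 in NTC. The part of these cells in Il2rb and in the response genes was not tested.

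The genes most like each cytokine gene over the 6 libraries were ranked by Pearson r of log2(FPKM + 1) among 10816 other protein-coding genes, as a description of points that share library and depth. For Il12b they were Bcl2a1a (0.99), Elmsan1 (0.99) and Clpp (0.99), with 105 genes above 0.9. Bcl2a1a, a survival gene of the Bcl2 family with near-identical copies, was highest in NTC 1. For Il27 they were Fbxl4 (1.00), Nfe2 (0.98) and Rufy2 (0.97), and Fbxl4 and Nfe2 were at 0 in NTC 1 and NTC 2 like Il27 itself. For Ebi3 they were Usp32 (1.00), Sult1a1 (1.00) and Yeats4 (0.99), each lowest in NTC 1, and 588 genes lay above 0.9, or 5.44% of those ranked. For Il15 they were Hmg20b (0.99), Mdc1 (0.97) and Uba1 (0.97). For Il15ra they were Tceanc2, Pet100 and Eid1, each at 0.97. Among the cytokine genes themselves, Il12b and Il15ra had r = 0.73, Il15 and Il27 also 0.73, and Il15 and Il15ra -0.24.

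**Figure D5:**
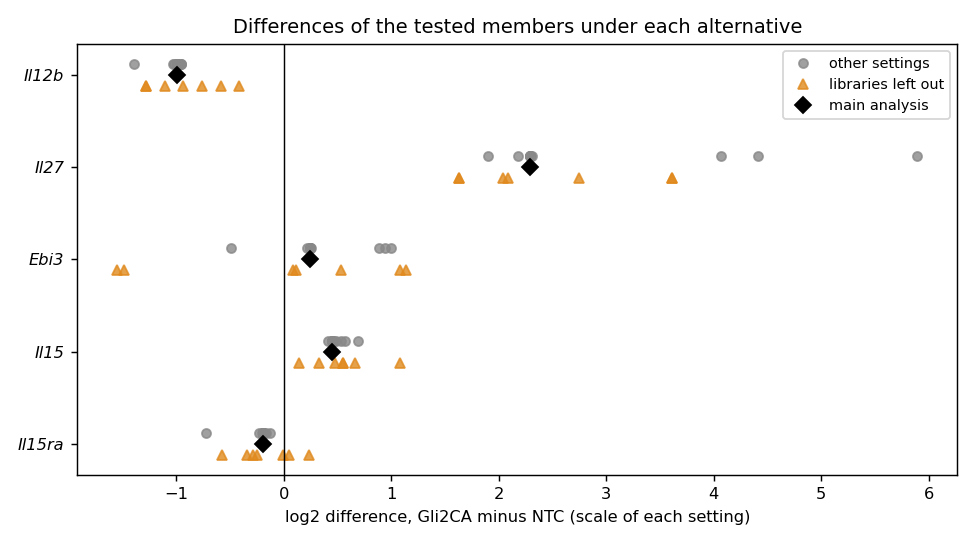
Log2 difference, Gli2CA minus NTC (horizontal axis), of the 5 tested genes in the main analysis (black), with libraries left out (orange) and under other settings (grey). Il12b stays below 0 and Il27 and Il15 above 0 throughout, while Ebi3 and Il15ra change sign.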

How the data were processed

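The authors deposited FPKM in 1 table, a column for each library. Aligner, counter, build, annotation and strand setting: not given in the sources used here. Per the labels' protocols, tumours were digested, CD11c-positive cells were sorted, and poly-T selected mRNA went into the NEBNext Ultra II library kit. Columns were matched to samples by the sample descriptions, and libraries are named by the number in the titles, so NTC 2 and NTC 3 are those numbered 3 and 4 in the descriptions. A reference table named 54409 of 54532 gene IDs, and positions and lengths came from GENCODE M21. FPKM times mean transcript length gave whole fragments for 96.6% to 98.1% of low values (under 50 fragments, within 0.05). Groups were compared with limma (version 3.58.1, R 4.3.3) on the scale log2(FPKM + 1), group as the only term, variances with a trend, two-sided, adjusted over 12266 genes. It was tested on simulated data. Single values used exact permutation (scipy 1.17.1); figures used matplotlib 3.10.9. Alternatives were another pseudocount (0.1), no filter, a minimum mean of 5, 3 scalings, 2 variance models, protein-coding genes, voom on recovered fragments, 2 replicate blocks, and libraries left out. Named genes were the 7 members, up to 4 genes of each list by smallest p, a fixed set of 8, the 3 genes most like each tested member, and genes at 0. Other genes named were chosen after their values were seen. The members and lists were chosen with earlier results of these data known.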

Additional observations from a re-analysis of the deposited data

How the results depend on the processing

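Of the 5 tested genes, 0 passed in any of 19 alternatives, and Il12b, Il27 and Il15 kept their sign in all 19. Ebi3 changed sign after quantile normalization (-0.49), without NTC 1 (-1.49) and without NTC 1 and NTC 3 together (-1.55), and Il15ra without Gli2CA 1 (0.24) and without NTC 1 (0.05). Leaving out both NTC libraries leaves 1, assumed to vary like the other group, and the cause of these sign changes was not tested. With single libraries left out the log2 difference ranged from -1.28 to -0.59 for Il12b, 1.63 to 3.61 for Il27, -1.49 to 1.14 for Ebi3, 0.14 to 0.66 for Il15 and -0.57 to 0.24 for Il15ra. Over all genes tested, 0 passed except after quantile normalization, with 21, among them 4 list genes (Irf7, Ly6c2, Ms4a4c and Ighm); the median of all genes then moved from 0.25 to -0.03. The 1304 genes at an unadjusted p under 0.05 ranged from 817 (without Gli2CA 1) to 2450 (without NTC 2) with 1 library left out. Same-numbered libraries did not deviate together (r of -0.04, -0.002 and -0.01 by title number, -0.04 and -0.06 by description number), so the numbers were not taken as pairs. The replicate block by title number gave 1088 such genes and -0.99 for Il12b, and the replicate block by description number 393 and -1.39. The latter moved Il27 to 4.07 (limma adjusted p = 0.913), Ebi3 to 0.94, Il15 to 0.69 and Il15ra to -0.72, and 0 genes passed in either. By description number Gli2CA 2 and NTC 3 have no partner. Its differences thus rest only on Gli2CA 1 with NTC 1 and Gli2CA 3 with NTC 2. NTC 3, the NTC library with Il27 above 0, has no part in the 4.07. Without NTC 1 and NTC 3 together, Il12b minus Il15ra within a library was -0.41 apart between the groups in place of -0.80, Il15 relative to type 1 conventional dendritic cell markers 2.64 in place of 1.77, and Il12b relative to monocyte markers -1.50 in place of -2.24; these alternatives were chosen after seeing the data. With 3 libraries a group the intervals are wide.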

Other observations

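Other CD11c-gate markers bear on which cells the cytokine values came from. Macrophage markers summed to 4876 to 9454 FPKM in Gli2CA and 6499 to 9146 FPKM in NTC, with Fcgr1 at 230 to 293 against 55.5 to 146 FPKM and Csf1r at 167 to 231 against 98.5 to 131 FPKM, each without overlap and neither passing. Type 2 conventional dendritic cell markers summed to 1224 to 1980 FPKM in Gli2CA and 1790 to 2228 FPKM in NTC. Of 6 tested 2 lay wholly lower in Gli2CA and 1 wholly higher, against 5.79% and 10.9% of all genes, and 0 passed. Mgl2 was at 48.7 to 218 against 256 to 367 FPKM, and Clec4a2 at 56.4 to 88.0 against 11.4 to 45.5 FPKM. Plasmacytoid markers summed to 42.0 to 72.6 FPKM in Gli2CA and 48.3 to 110 FPKM in NTC, and 0 of 8 passed. Neutrophil markers summed to 11.7 to 244 FPKM and 46.0 to 76.8 FPKM, with Retnlg and Ly6g at 0 in all 6 libraries. Of the 3 B cell markers tested, Ighm had 107 to 190 FPKM in Gli2CA and 451 to 679 in NTC, Cd79a 2.47 to 4.63 and 0.0365 to 6.43 FPKM, and Cd79b 6.72 to 28.6 and 0 to 10.4 FPKM. Cd79a and Cd79b had the higher mean in Gli2CA and Ighm the lower. Of the melanoma markers Mlana, Tyr, Dct and Tyrp1 were at 0 throughout, whereas Sox10 had 12.1 to 19.8 FPKM in Gli2CA and was listed at 0 in NTC. Fibroblast and endothelial markers summed to 51.3 to 330 FPKM in Gli2CA and to 25.4, 3160 and 0.687 FPKM in NTC 1, NTC 2 and NTC 3.

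Cebpb, which encodes a factor that acts on Il12b, had 340 FPKM in Gli2CA 3 and at most 9.63 FPKM in the other 5 libraries. Il4i1, listed at 0 in every library, shares its annotated span on chromosome 7 with Nup62 on the same strand, which had 9.02 to 57.8 FPKM.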
